A study of Rattus norvegicus with 12 samples.

Results

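The genes described here were the rows of the count table whose symbols name a voltage-gated sodium channel (Scn), a voltage-gated calcium channel subunit (Cacna, Cacnb or Cacng), a hyperpolarization-activated channel (Hcn) or a transient receptor potential channel of the TRPC, TRPM or TRPV families. Rows were matched by symbol alone, though with earlier results of these data known, and 65 of the 17268 genes in the table matched. They comprised 10 sodium channel pore subunits, 4 sodium channel beta subunits, 10 calcium channel pore subunits, 4 alpha2delta subunits, 4 calcium channel beta subunits, 8 Cacng genes, 4 HCN genes, 5 TRPC, 8 TRPM and 6 TRPV genes. The remaining 2 matches, Trpc4ap and Trpc5os, are named after a TRPC gene but encode no channel. Trpc5 and Trpc6 were not analysed here.

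RNA was sequenced from the cerebral cortex of adult male Sprague Dawley rats in 4 groups of 3 libraries. In Sham rats the operation was done but no clot was placed. In Model rats, a clot from a donor rat was placed in the right middle cerebral artery, an embolic form of stroke. The rt-PA rats received the same clot and then recombinant tissue plasminogen activator, the clot-dissolving drug, at 6 h. The rt-PA+Acu rats received the clot, Xingnao Kaiqiao acupuncture at the Shuigou and Neiguan points at 2 h, and rt-PA at 6 h. The sources used here name neither the time at which the sequenced cortex was taken nor its distance from the infarct, and they do not say that each library came from a separate rat, so p-values measure the spread between these libraries. In tissue of this kind, fewer cells of a type and less RNA per cell cannot be told apart.

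Sodium channels carry the inward current of the action potential, and voltage-gated calcium channels turn that depolarization into calcium entry for transmitter release, dendritic signalling and transcription. HCN channels open on hyperpolarization and set resting potential and rhythm, while TRP channels are mostly calcium-permeable cation channels gated by lipids, temperature, osmolarity, calcium or oxidative stress. In cerebral ischemia the failure of ATP-driven pumps lets sodium and calcium enter through several of these routes, which is why they have long been studied as drug targets in stroke.

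The libraries held 11678450 to 13616935 counts. Levels are given as CPM, the counts of a gene scaled to a common library total, after TMM scaling, at which 3 counts equal 0.208 to 0.262 CPM. Of the 65 genes, 48 had at least 10 counts in every library, and 2 never exceeded 3 counts. Differences between groups were tested with edgeR's quasi-likelihood test across all expressed genes, with Benjamini-Hochberg adjustment over all of them, and a gene was called changed at an adjusted p under 0.05. CPM is not corrected for transcript length, so levels were compared between libraries and not between genes. The libraries of a group were not equally close: Model replicate 3 and rt-PA+Acu replicate 3 stood apart from the others of their groups for several channels, and Sham replicate 1 stood apart for Scn4b and for markers of striatal neurons.

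After stroke, 5 of the 10 channel families held both genes that rose and genes that fell, 4 held only genes that fell, and the TRPV family only 1 that rose. Over all genes tested, 27.3% were higher and 26.6% lower. How often other gene groups of such sizes hold both directions was not tested. In Model against Sham, 54 of the 65 genes passed the low-count filter and 28 of them changed, 8 higher and 20 lower, which is 51.9% of those tested against a background of 54% of all 12884 genes tested. The share that changed was thus close to that of genes in general. The lower genes made up 37% of the channel genes tested against 26.6% of all genes, and the higher ones 14.8% against 27.3%. With library size alone in place of TMM scaling, the split was 13 higher and 18 lower. The median log2 fold change of the 54 genes was -0.281, against 0.0142 over all genes. At a change of more than 2-fold, 17 channel genes remained called, 5 higher (background 9.43%) and 12 lower (background 12%), or 31.5% against 21.5% in all. The Sham and Model libraries did not overlap for 33 of the 54 (61.1%, background 63.6%).

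**Figure D1:**
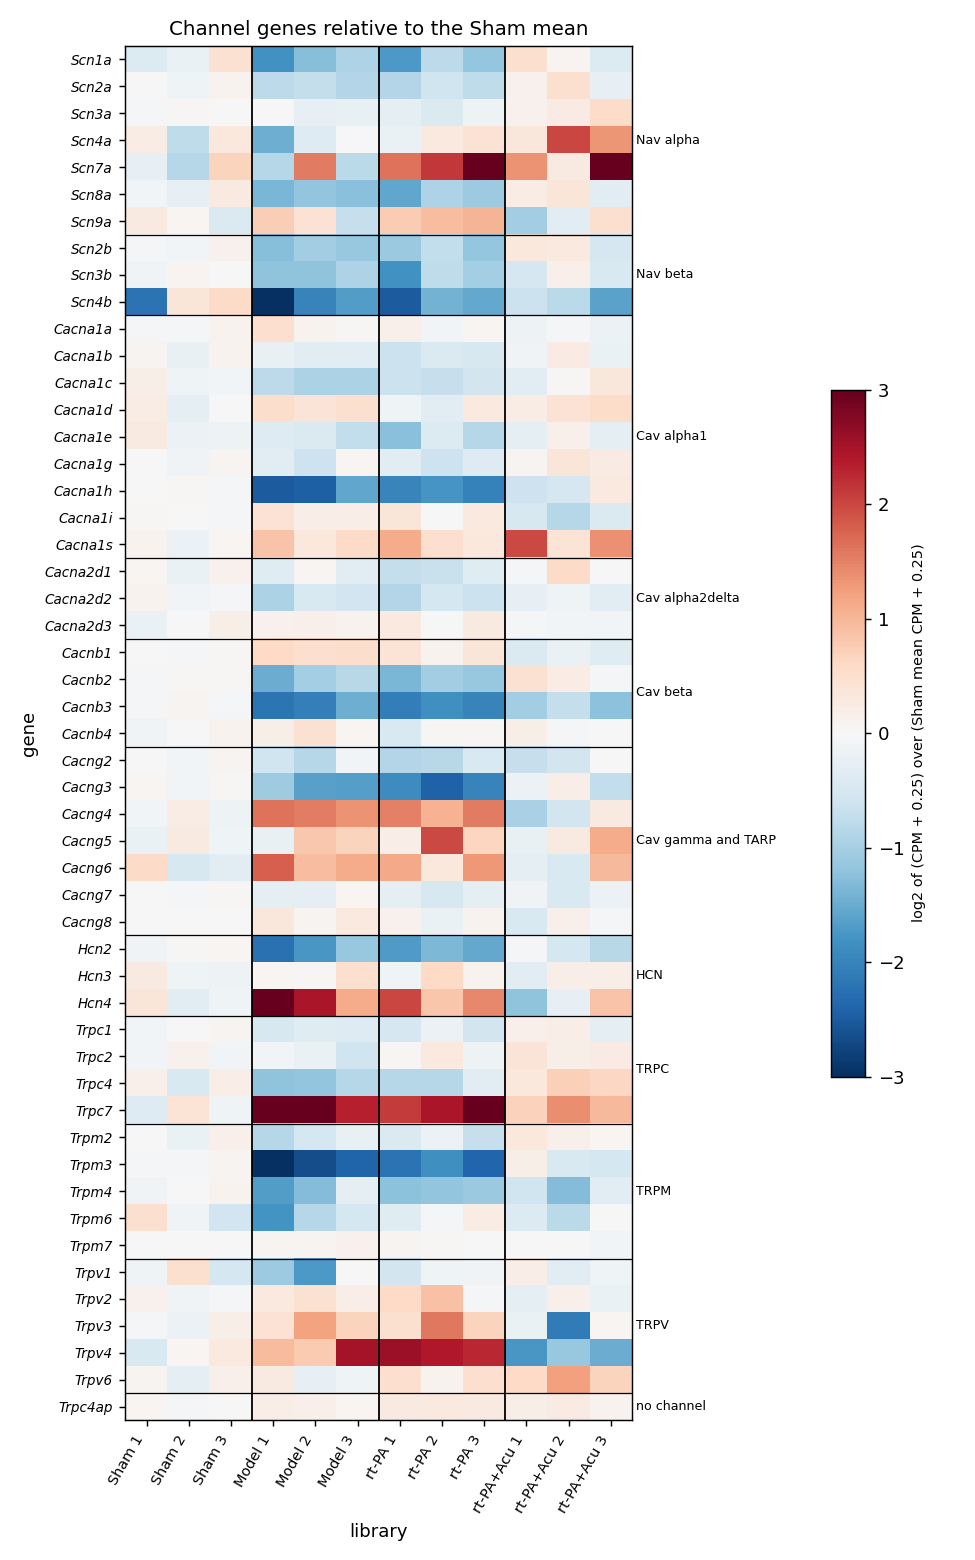
Level of each channel gene in each of the 12 libraries, shown as log2 of CPM plus 0.25 over the Sham mean plus 0.25, for 51 of the 55 genes with a mean of at least 1 CPM; columns are the libraries of the 4 groups and rows are genes ordered by family, with colours capped at 3 and -3. Trpm3, Cacna1h, Cacnb3 and Hcn2 were below their Sham levels in the 3 Model and 3 rt-PA libraries, while Cacng4, Trpc7 and Hcn4 were above theirs.

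Among the sodium channel pore subunits, the 3 that carry most sodium current in the mature brain were lower after stroke. Scn1a, prominent in fast-spiking interneurons, was at 243, 282 and 439 CPM in the 3 Sham libraries and at 91.4, 132 and 168 CPM in the 3 Model libraries. The groups did not overlap, and the log2 fold change was -1.29 (SE 0.26, edgeR adjusted p = 0.00376). Scn8a, the main subunit of the mature axon initial segment and nodes of Ranvier, was at 272, 244 and 348 CPM in Sham and 110.5, 127 and 121 CPM in Model. All Model libraries lay far below the lowest Sham library, with a log2 fold change of -1.26 (SE 0.14, edgeR adjusted p = 0.000174). Scn2a, found along axons of excitatory neurons, was at 562, 506 and 599 CPM in Sham and 324, 338 and 303 CPM in Model, a smaller but equally separated difference (log2 fold change -0.78, SE 0.09, edgeR adjusted p = 0.000265).

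Scn3a, the subunit best known from the developing brain, did not pass the test. Its levels were 69.8, 72.9 and 70.6 CPM in Sham and 70.9, 60.0 and 60.5 CPM in Model (log2 fold change -0.15, SE 0.10, edgeR adjusted p = 0.227), and the groups overlapped. The ratio of Scn3a to Scn1a counts was 0.161 to 0.287 in Sham and 0.359 to 0.776 in Model, a pair picked after its values were seen and given without a test. Scn9a, known mainly from sensory neurons, was at a mean level of 4.81 ± 1.21 CPM (SD, n = 3) in Sham and did not pass the test. Scn4a did not pass either. Scn7a, Scn10a and Scn11a were too low to be tested in this comparison.

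The beta subunits, which tether the pore to adhesion partners and tune its gating, included genes that fell as clearly as the pore subunits. Scn2b, joined to the pore by a disulfide bond, was at 339, 329 and 385 CPM in Sham and 144, 169.6 and 159.6 CPM in Model (log2 fold change -1.15, SE 0.10, edgeR adjusted p = 5.96e-05). Scn3b was at 272, 311 and 293 CPM in Sham and 126, 127 and 153 CPM in Model (log2 fold change -1.10, SE 0.10, edgeR adjusted p = 9.15e-05). For both genes every Model library was below every Sham library.

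Scn4b, the subunit enriched in striatal and fast-firing neurons, needs a separate account. It was at 49.0, 293 and 338 CPM in Sham and 25.7, 56.3 and 70.9 CPM in Model (log2 fold change -2.15, SE 0.64, edgeR adjusted p = 0.0211). Sham replicate 1 lay inside the Model range, so the groups overlapped. The summed level of 5 striatal markers was 185.8 CPM in that library against 703.9 and 544.4 CPM in Sham replicates 2 and 3 and 66.19 to 151.2 CPM in Model, and all 5 were lower in Model. Whether the amount of striatum in the dissected tissue had a part in the Scn4b difference was not tested. The Scn4b call was lost without Sham replicate 2 (edgeR adjusted p = 0.0658), Sham replicate 3 (0.0752), Model replicate 1 (0.0568) or Model replicate 2 (0.0587).

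**Figure D2:**
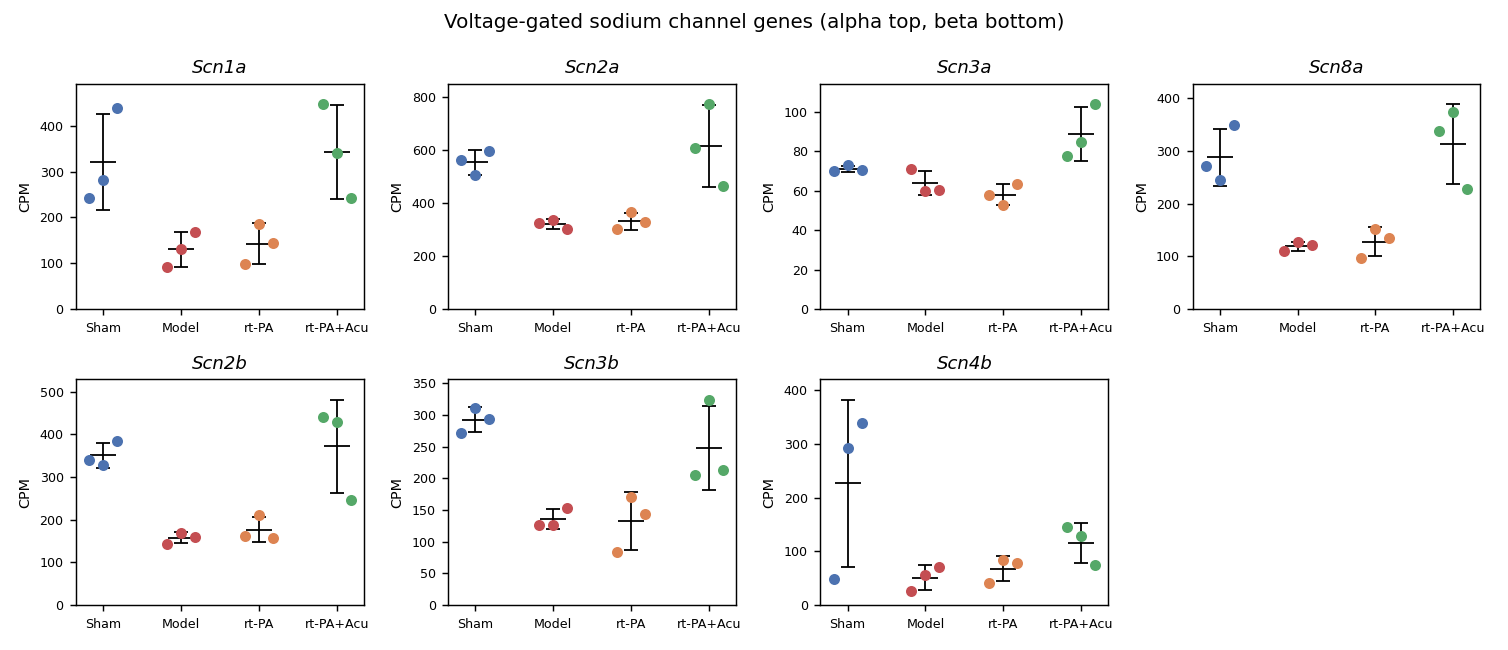
Levels of sodium channel genes in CPM on linear axes that start at 0, one point per library in each of the 4 groups; the long horizontal line is the group mean and the bars are 1 SD (n = 3). Scn1a, Scn2a, Scn8a, Scn2b and Scn3b were lower in every Model library than in every Sham library, whereas the Scn3a groups overlapped and Sham replicate 1 lay at 49.0 CPM for Scn4b.

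Proteins that anchor or modulate sodium channels moved one way where they moved. Of 12 partner genes, a list that includes ankyrin G (Ank3), neurofascin (Nfasc) and the intracellular Fgf11 to Fgf14 family, 9 were lower in Model and 0 were higher, or 75% called against the background of 54%. The median of their log2 fold changes was -0.598. This list and the other partner lists below were chosen with earlier results of these data known. Their shares beside the background are descriptive and carry no test. Fgf13, which binds the channel tail and microtubules, fell by 0.94 on the log2 scale (edgeR adjusted p = 0.000142).

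The T-type calcium channels, low-threshold channels behind burst firing, did not move together. Cacna1h was at 63.4, 63.7 and 60.5 CPM in Sham and 10.8, 11.2 and 20.9 CPM in Model, a 4.37-fold lower mean. The log2 fold change was -2.12 (SE 0.23, edgeR adjusted p = 0.000189), and the highest Model value belonged to replicate 3. Cacna1i was at 192, 188 and 181 CPM in Sham and 254, 216 and 213 CPM in Model, slightly higher and without overlap (log2 fold change 0.29, SE 0.09, edgeR adjusted p = 0.0303). That small rise was lost without any single Sham library or without Model replicate 1 (edgeR adjusted p from 0.0628 to 0.0959). Cacna1g was at 127, 117 and 134 CPM and 99.8, 81.9 and 132 CPM and did not pass (edgeR adjusted p = 0.195). Counted as a ratio within a library, Cacna1i to Cacna1h was 2.95 to 3.03 in Sham and 10.2 to 23.4 in Model.

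The L-type pore subunits, which couple depolarization to transcription in neurons, also parted. Cacna1c was at 76.6, 61.5 and 64.2 CPM in Sham and 38.9, 35.0 and 34.6 CPM in Model (log2 fold change -0.89, SE 0.12, edgeR adjusted p = 0.000401). Cacna1d, which opens at less depolarized potentials, was at 108, 77.1 and 94.7 CPM in Sham and 135, 121 and 131 CPM in Model (log2 fold change 0.47, SE 0.13, edgeR adjusted p = 0.0144). The first fell and the second rose, both without overlap, and their ratio (Cacna1d to Cacna1c) went from 1.26 to 1.48 in Sham to 3.46 to 3.78 in Model. These ratios, like the others below, are for pairs picked after the values were seen and carry no test.

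The presynaptic channels that drive transmitter release differed less. Cacna1a, the P/Q-type pore, was at 253, 256 and 287 CPM in Sham and 376, 285 and 271 CPM in Model and did not pass (edgeR adjusted p = 0.166). Cacna1b, the N-type pore, was at 221, 177 and 225 CPM and 178, 167 and 167 CPM (edgeR adjusted p = 0.0594). Cacna1e, the R-type pore, was lower, at 234, 172 and 172 CPM in Sham and 148, 143 and 115 CPM in Model (log2 fold change -0.50, SE 0.15, edgeR adjusted p = 0.0223), a call lost without Sham replicate 1 (edgeR adjusted p = 0.0625). Cacna1s, the skeletal muscle pore, was at a mean of 1.25 ± 0.158 CPM (SD, n = 3) in Sham and did not pass, and Cacna1f, the retinal pore, was too low to be tested.

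The cytosolic beta subunits, which bring the pore to the membrane and set its gating, moved in opposite directions. Cacnb3 was at 236, 255 and 232 CPM in Sham and 52.4, 57.7 and 86.5 CPM in Model, 3.68-fold lower by the means (log2 fold change -1.87, SE 0.18, edgeR adjusted p = 9.09e-05). Cacnb2 was at 58.0, 62.1 and 62.3 CPM in Sham and 21.5, 29.6 and 34.1 CPM in Model (log2 fold change -1.09, SE 0.16, edgeR adjusted p = 0.000674). Cacnb1 went the other way, from 157, 155 and 163 CPM in Sham to 241, 223 and 227 CPM in Model (log2 fold change 0.55, SE 0.08, edgeR adjusted p = 0.000649). None of the 3 overlapped between the groups, and the ratio of Cacnb1 to Cacnb3 rose from 0.608 to 0.704 in Sham to 2.62 to 4.60 in Model. Cacnb4 was at 193, 206 and 225 CPM and 237, 285 and 218 CPM and did not pass (edgeR adjusted p = 0.0987).

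The alpha2delta subunits, extracellular proteins that promote trafficking to the terminal, moved little. Cacna2d2, which like Cacna2d1 binds gabapentin, was at 52.2, 45.9 and 47.8 CPM in Sham and 25.1, 35.2 and 32.6 CPM in Model (log2 fold change -0.65, SE 0.14, edgeR adjusted p = 0.00458). Cacna2d1 was at 156, 131 and 165 CPM and 116, 156 and 118 CPM, and Cacna2d3 at 146, 168 and 188 CPM and 183, 185 and 180.3 CPM. Neither passed (edgeR adjusted p = 0.24 and 0.296), and Cacna2d4 was too low to be tested.

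Most Cacng genes expressed in cortex encode transmembrane AMPA receptor regulatory proteins (TARPs), which escort glutamate receptors and slow their closing, and they too split. Cacng3 was at 108, 98.0 and 106 CPM in Sham and 49.1, 33.2 and 33.0 CPM in Model (log2 fold change -1.43, SE 0.16, edgeR adjusted p = 0.000213). Cacng4 was at 102, 126 and 96.6 CPM in Sham and 334, 312 and 276 CPM in Model, 2.85-fold higher by the means (log2 fold change 1.52, SE 0.12, edgeR adjusted p = 4.86e-05). The groups were fully apart for both, and Cacng4 to Cacng3 was 0.910 to 1.28 in Sham and 6.80 to 9.39 in Model. Cacng2 (stargazin) and Cacng8 were at 30.9 ± 1.88 and 66.8 ± 0.526 CPM (SD, n = 3) in Sham and 22.2 ± 6.39 and 78.8 ± 7.29 CPM in Model, and neither passed (edgeR adjusted p = 0.0708 and 0.058). The type II TARPs Cacng5 and Cacng7 did not pass either. Cacng6, related to the gamma subunit of skeletal muscle, was at only 1.85, 0.764 and 0.873 CPM in Sham and 4.66, 2.46 and 2.81 CPM in Model (log2 fold change 1.51, SE 0.45, edgeR adjusted p = 0.0212), a call lost without Sham replicate 2 (edgeR adjusted p = 0.0803), Sham replicate 3 (0.0766) or Model replicate 1 (0.0758).

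**Figure D3:**
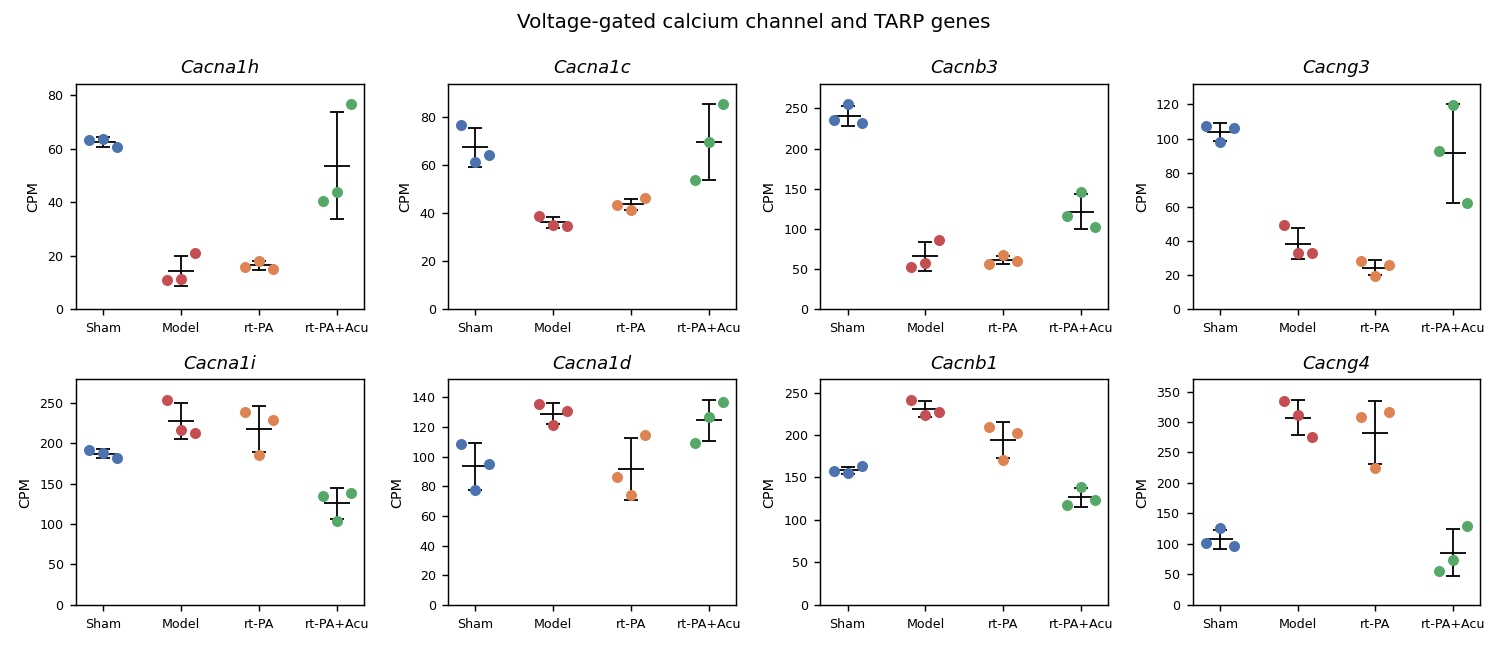
Levels of calcium channel and TARP genes in CPM on linear axes that start at 0, one point per library in the 4 groups, with the group mean and 1 SD (n = 3). In the top row Cacna1h, Cacna1c, Cacnb3 and Cacng3 were lower in Model than in Sham, and in the bottom row their relatives Cacna1i, Cacna1d, Cacnb1 and Cacng4 were higher.

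The bases upstream of Cacng3, one of the genes that fell, and of Trpc7, one that rose, shared a sequence that was rare elsewhere. It is the 9-letter left arm of the RE1 element (TTCAGCACC), to which the repressor REST binds at many neuronal genes. These 2 windows are shown because, of 54 windows upstream of 47 of the 65 genes, only they held it on either strand, against 0.305% of 33469 windows of all genes. The windows span the 250 bases before the RefSeq start on GRCr8, which is not the build of the counts (mRatBN7.2), and capitals mark each match. The first is chr1:186632312-186632561 and the second chr17:7714651-7714900, both on the plus strand. In Cacng3 the matches begin at -206 and -134, and in Trpc7 at -25 relative to the start.
Cacng3: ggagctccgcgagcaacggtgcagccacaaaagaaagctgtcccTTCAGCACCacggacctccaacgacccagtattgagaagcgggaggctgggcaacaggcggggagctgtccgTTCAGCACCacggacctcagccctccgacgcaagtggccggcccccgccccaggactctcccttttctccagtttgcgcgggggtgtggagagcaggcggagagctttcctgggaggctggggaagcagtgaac
Trpc7: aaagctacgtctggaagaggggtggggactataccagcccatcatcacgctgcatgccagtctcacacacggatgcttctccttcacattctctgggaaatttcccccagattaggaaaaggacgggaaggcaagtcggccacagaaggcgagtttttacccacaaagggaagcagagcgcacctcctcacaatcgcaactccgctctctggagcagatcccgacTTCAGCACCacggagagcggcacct
The genes with this element moved in opposite directions. The motif was looked for after the values were seen, and a match in letters shows neither binding nor a cause. The GC box (GGGCGG) was in 38.9% of the windows of channel genes and 30.5% of all windows, the AP-1 motif (TGANTCA) in 3.7% (those of Scn3a and Trpv3) and 6.34%, and the cAMP response element (TGACGTCA) in 0 of 54 windows and 1.59% of all.

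Regulators of calcium channels included some of the larger changes. Of 12 tested partner genes, 4 were higher and 3 lower, or 58.3% called against the background of 54%. Of the 4 listed small GTPases that restrain calcium channels at the membrane, Rrad and Gem rose, with log2 fold changes of 4.46 and 2.70 (edgeR adjusted p = 5.02e-05 and 0.00443). Rem1 had means of 1.78 CPM in Sham and 1.65 CPM in Model, and Rem2 of 2.86 and 2.14 CPM, and neither passed (edgeR adjusted p = 0.862 and 0.548). Among the other regulators the adaptor Stac2 rose by 1.88 (edgeR adjusted p = 0.000216). Akap5, the scaffold that holds kinase and phosphatase at L-type channels, fell by 3.28 on the log2 scale (edgeR adjusted p = 2.7e-05), from a mean of 194 CPM to one of 20.0 CPM.

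Among the HCN genes, Hcn2 fell and Hcn4 rose. Hcn2, a cAMP-sensitive subunit common in cortex, was at 100.3, 110.2 and 112 CPM in Sham and 22.4, 32.2 and 48.8 CPM in Model, 3.12-fold lower by the means (log2 fold change -1.64, SE 0.24, edgeR adjusted p = 0.000686). Hcn4, the slow subunit best known from thalamus and the cardiac pacemaker, was at 6.04, 3.59 and 4.19 CPM in Sham and 43.5, 26.2 and 10.2 CPM in Model (log2 fold change 2.54, SE 0.49, edgeR adjusted p = 0.00284). For Hcn4 all Model libraries exceeded all Sham libraries, for Hcn2 all were below them, and replicate 3 was the nearest to Sham for both genes. Hcn3 was at 21.3, 16.1 and 15.8 CPM in Sham and 18.3, 18.3 and 25.0 CPM in Model and did not pass (edgeR adjusted p = 0.348). Of 4 HCN partners, Pex5l, the TRIP8b adaptor that carries HCN channels into dendrites, was lower (log2 fold change of -1.05, SE 0.11, edgeR adjusted p = 0.000138), and the other 3 did not pass.

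Trpm3, a steroid- and heat-activated channel, showed the largest fall among the 65 genes in this comparison. It was at 95.0, 97.5 and 105 CPM in Sham and 12.4, 15.6 and 18.5 CPM in Model, 6.41-fold lower by the means (log2 fold change -2.68, SE 0.15, edgeR adjusted p = 9.88e-06). Trpm3 is abundant in choroid plexus, and the summed level of 4 choroid plexus markers was 0.216 to 1.68 CPM across the 12 libraries. Whether choroid plexus had a part in the Trpm3 difference was not tested. Trpm2, opened by ADP-ribose under oxidative stress, was at 26.3, 22.8 and 29.2 CPM in Sham and 14.3, 17.9 and 22.5 CPM in Model (log2 fold change -0.51, SE 0.18, edgeR adjusted p = 0.0437). Trpm4, a calcium-activated channel studied in brain oedema, was at 12.6, 13.3 and 14.5 CPM and 4.05, 5.33 and 11.1 CPM (log2 fold change -0.97, SE 0.34, edgeR adjusted p = 0.0395). The Trpm4 call was lost in 5 of the 6 fits that left out 1 library, all but that without Model replicate 3 (edgeR adjusted p from 0.0753 to 0.125), and the Trpm2 call in 4, those without Model replicate 1 or 2 or Sham replicate 1 or 3 (0.0964 to 0.139). Trpm7, a channel fused to a kinase and present in nearly all cells, was at 108, 107 and 109 CPM in Sham and 114, 114 and 118 CPM in Model and did not pass (edgeR adjusted p = 0.281). Trpm6 did not pass, and Trpm1, Trpm5 and Trpm8 were too low to be tested.

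The TRPC channels, opened downstream of phospholipase C, held the largest rise. Trpc7 was at 1.37, 2.52 and 1.66 CPM in Sham and 24.9, 17.9 and 10.3 CPM in Model, 9.56-fold higher by the means (log2 fold change 3.25, SE 0.38, edgeR adjusted p = 0.000249). Trpc4 was at 19.0, 12.4 and 19.6 CPM in Sham and 7.18, 7.28 and 9.25 CPM in Model (log2 fold change -1.10, SE 0.22, edgeR adjusted p = 0.00356). Trpc1, which forms mixed channels with the others, was at 52.9, 56.1 and 59.8 CPM and 40.2, 43.5 and 42.8 CPM (log2 fold change -0.41, SE 0.09, edgeR adjusted p = 0.00596). For these 3 genes the groups did not overlap. The ratio of Trpc7 to Trpc4 was 0.0720 to 0.204 in Sham and 1.12 to 3.47 in Model. Trpc2, the vomeronasal channel, stayed between 2.06 and 4.30 CPM in all 12 libraries, and Trpc4ap, an adaptor protein and not a channel, between 118 and 148 CPM, and neither passed.

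Among the TRPV channels, Trpv4, the osmotic and mechanical sensor found in endothelium and glia, was the only one called of 5 tested. It was at 0.564, 0.917 and 1.13 CPM in Sham and 1.91, 1.69 and 6.03 CPM in Model (log2 fold change 1.88, SE 0.59, edgeR adjusted p = 0.0256), with Model replicate 3 far above the others. Without that library the edgeR adjusted p was 0.078, and leaving out any Sham library gave 0.0512 to 0.0876. Trpv2 and Trpv6 were at 17.3 ± 1.55 and 13.2 ± 1.96 CPM (SD, n = 3) in Sham and 21.8 ± 2.08 and 13.0 ± 2.61 CPM in Model, and did not pass (edgeR adjusted p = 0.0735 and 0.982). Trpv1, the capsaicin receptor, and Trpv3 averaged no more than 3.40 CPM in any group and did not pass, and Trpv5 was too low to be tested.

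**Figure D4:**
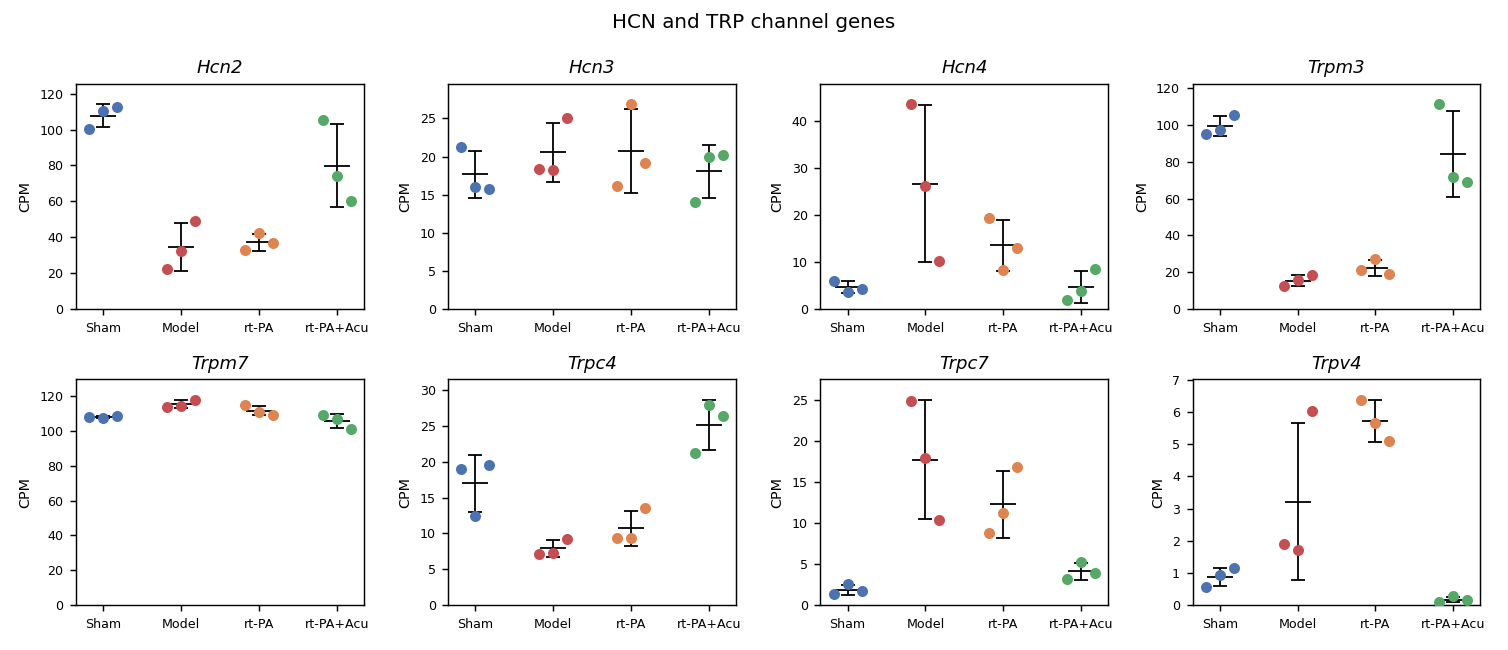
Levels of HCN and TRP channel genes in CPM on linear axes that start at 0, one point per library in the 4 groups, with the group mean and 1 SD (n = 3). Hcn2, Trpm3 and Trpc4 were lower and Hcn4, Trpc7 and Trpv4 higher in Model than in Sham, while Hcn3 and Trpm7 did not pass, and the 3 rt-PA+Acu libraries held 0.0843 to 0.262 CPM of Trpv4.

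Other routes of sodium and calcium across the membrane were mostly lower as well. Of 11 tested genes for further TRP, store-operated and leak channels, 7 were lower and 2 higher (81.8% called). Nalcn, the sodium leak channel, and its partner Unc80 were lower (log2 fold changes of -1.04 and -0.996, edgeR adjusted p = 6.31e-05 and 9.35e-05), as was Stim1, the calcium sensor of the endoplasmic reticulum (-1.16, edgeR adjusted p = 8.09e-05). Mcoln3, a lysosomal channel, had a mean of 0.0805 CPM in Sham, under the level of 3 counts, and 6.18 CPM in Model (edgeR adjusted p = 0.00102). Of 15 genes for calcium and sodium extrusion, 9 were lower and 3 higher (80% called). Both shares stand against the background of 54%, for lists chosen with earlier results of these data known. Those that fell included Atp1b2, a sodium pump subunit of astrocytes (log2 fold change of -1.79, edgeR adjusted p = 0.000449), Slc8a2, a sodium-calcium exchanger (-1.91, 2.25e-05), and Atp2b2, a plasma membrane calcium pump (-1.67, 0.000138).

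Cell type markers moved alongside these channels. All 5 markers of excitatory cortical neurons were lower in Model. Their median log2 fold change was -1.70, and their summed level was 1767 to 2000.3 CPM in Sham and 871.6 to 1043.5 CPM in Model. Of the 6 interneuron markers listed, Pvalb was not among the measured genes. The other 5 summed to 569.7 to 624.5 CPM in Sham and 741.1 to 970.4 CPM in Model. Gad1 and Gad2 were higher in Model (log2 fold changes of 0.87 and 0.90) and the other 3 did not pass. Oligodendrocyte markers summed to 11966 to 17905 CPM in Sham and 1672 to 8503 CPM in Model, and 5 of 6 were lower. Of the other glial lists, 5 of 6 astrocyte markers were lower and 1 higher (median log2 fold change -1.38), with overlapping sums of 4227 to 5067 CPM in Sham and 4007 to 5898 CPM in Model. Of the microglial markers 5 of 6 were lower, as were all 3 of oligodendrocyte precursors. Markers of infiltrating myeloid cells rose in 3 of 6 cases, with sums of 54.6 to 65.4 CPM in Sham and 158 to 235 CPM in Model. The general list of 10 neuronal markers was mixed, with 4 lower and 2 higher (median log2 fold change -0.152). All 5 markers of striatal neurons were lower, and their sums were 186 to 704 CPM in Sham and 66.2 to 151 CPM in Model. The part of cell composition in the channel differences was not tested.

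With rt-PA alone at 6 h, no channel gene passed the adjusted threshold. In rt-PA against Model, edgeR called 0 of 57 tested channel genes (0%), against a background of 0% of all 12941 genes. DESeq2 also called 0 of the channel genes, and its count over all genes is not given here. The study, which used DESeq2, did report changed genes for rt-PA against Model. The smallest edgeR adjusted p among the channels was 0.385. At an unadjusted p under 0.05 there were 8 of 57 (14%, background 9.92%), and 13 had groups that did not overlap (22.8%, background 15.9%). The 8 were Cacna1b, Cacna1c, Cacna1d, Cacna2d1, Cacnb1, Cacng3, Scn7a and Trpm3. Cacng3 was at 28.0, 19.2 and 25.9 CPM in the rt-PA libraries, Trpm3 at 21.2, 27.4 and 19.0 CPM and Cacna1d at 86.0, 74.2 and 114 CPM. Scn7a, a sodium-sensing channel of glia, was at 0.229, 2.29 and 0.248 CPM in Model and 2.43, 3.52 and 11.2 CPM in rt-PA. Of the genes that had moved most in Model, Hcn2 was in the rt-PA libraries at 32.7, 42.2 and 36.8 CPM, Cacnb3 at 56.8, 67.3 and 59.6 CPM and Trpc7 at 8.81, 11.2 and 16.7 CPM. The 4 markers of fibroblasts and meninges summed to 20.1 to 47.6 CPM in Model and 53.0 to 210 CPM in rt-PA. All 4 were at an unadjusted edgeR p under 0.05, as were 2 of 3 endothelial, 2 of 6 myeloid, 0 of 6 microglial and 0 of 6 oligodendrocyte markers. The part of cell composition in these differences was not tested.

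In rats that received acupuncture before rt-PA, 16 of the 20 channels that were lower after stroke were higher and 5 of the 8 that were higher were lower, in a comparison that shares no library with the first. These were 75% of the channel calls in Model against Sham and 84% of those here, against 53.8% and 83.4% over all genes. Of all genes called in both comparisons, 3715 of 3729 had opposite signs. In rt-PA+Acu against rt-PA, 25 of 57 tested channel genes changed, 20 higher and 5 lower, which is 43.9% against a background of 34.8% of all 12999 genes. The higher genes made up 35.1% of those tested (background 17%) and the lower ones 8.77% (background 17.7%). The median log2 fold change was 0.426, against -0.00273 over all genes. Past 2-fold there were 12 (21.1%, background 15.3%), 9 higher (background 7.17%) and 3 lower (background 8.16%), and the groups did not overlap for 32 of the 57 (56.1%, background 51.1%). Without rt-PA replicate 1 the count fell to 17, 12 higher and 5 lower.

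Sodium channels were higher throughout where they were called. Scn1a was at 97.9, 187 and 144 CPM in rt-PA and 447, 339.9 and 243 CPM in rt-PA+Acu (log2 fold change 1.27, SE 0.28, edgeR adjusted p = 0.0134). Scn8a was at 97.7, 151 and 135 CPM and 337, 373 and 227 CPM (log2 fold change 1.29, SE 0.22, edgeR adjusted p = 0.00597), and Scn2a at 302, 366 and 329 CPM and 609, 775 and 465 CPM (log2 fold change 0.89, SE 0.19, edgeR adjusted p = 0.011). In all 3 genes the groups were apart and rt-PA+Acu replicate 3 was the lowest of its group. Scn3a, not called in Model against Sham, was at 57.8, 52.7 and 63.6 CPM and 77.7, 84.5 and 104 CPM (log2 fold change 0.61, SE 0.14, edgeR adjusted p = 0.0151), with replicate 3 here the highest; the call was lost without rt-PA replicate 1 (edgeR adjusted p = 0.0515). Of the beta subunits, Scn2b was at 162, 210.0 and 157 CPM and 439.6, 429.8 and 246 CPM (log2 fold change 1.08, SE 0.23, edgeR adjusted p = 0.0119) and Scn3b at 82.8, 171 and 144 CPM and 205, 324 and 214 CPM (log2 fold change 0.90, SE 0.29, edgeR adjusted p = 0.0441). The Scn3b call was lost without rt-PA replicate 1 or 3 or rt-PA+Acu replicate 1 or 2 (edgeR adjusted p from 0.0598 to 0.144). Scn4b did not pass, at 145, 129 and 73.8 CPM in rt-PA+Acu.

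The T-type pair Cacna1h and Cacna1i parted in this comparison as well, with Cacna1h higher and Cacna1i lower. Cacna1h was at 15.7, 18.2 and 15.0 CPM in rt-PA and 40.3, 43.9 and 76.7 CPM in rt-PA+Acu (log2 fold change 1.72, SE 0.26, edgeR adjusted p = 0.0038), while Cacna1i was at 239, 185 and 229 CPM and 134, 104 and 138 CPM (log2 fold change -0.79, SE 0.15, edgeR adjusted p = 0.00851). Cacnb2 was at 23.3, 29.2 and 27.7 CPM and 83.9, 71.6 and 59.7 CPM (log2 fold change 1.42, SE 0.16, edgeR adjusted p = 0.00149), and Cacnb3 at 56.8, 67.3 and 59.6 CPM and 116, 146 and 103 CPM (log2 fold change 0.99, SE 0.15, edgeR adjusted p = 0.00372). Cacnb1 was lower, at 209, 170.3 and 203 CPM and 117, 138 and 124 CPM (log2 fold change -0.62, SE 0.12, edgeR adjusted p = 0.00905). The ratio of Cacnb1 to Cacnb3 was 2.53 to 3.69 in rt-PA. In rt-PA+Acu it was 0.949 to 1.20, still above the Sham range of 0.608 to 0.704. Cacng3 was at 92.5, 119.6 and 61.9 CPM in rt-PA+Acu (log2 fold change 1.90, SE 0.25, edgeR adjusted p = 0.00261) and Cacng4 at 307, 224 and 317 CPM in rt-PA and 54.9, 73.1 and 129 CPM in rt-PA+Acu (log2 fold change -1.72, SE 0.31, edgeR adjusted p = 0.00694). The third rt-PA+Acu library was the one nearest to the rt-PA group for both TARP genes, and the farthest from it for Cacna1h.

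Among the other calcium channel genes, Cacna1g, Cacna1c, Cacna1b, Cacna2d1 and Cacna2d2 were higher, with log2 fold changes of 0.68, 0.68, 0.51, 0.77 and 0.45 (edgeR adjusted p = 0.00673, 0.0212, 0.0275, 0.0182 and 0.0325). Cacna1g was at 101, 82.6 and 95.9 CPM and 135, 163 and 150.0 CPM, and its call held when any 1 library was left out. The other 4 calls were each lost without rt-PA replicate 1 (edgeR adjusted p = 0.0662 for Cacna1c, 0.0964 for Cacna1b, 0.0668 for Cacna2d1 and 0.106 for Cacna2d2) and without at least 1 other library, up to an adjusted p of 0.112. Cacna1d, the L-type gene that rose in Model, was at 86.0, 74.2 and 114 CPM in rt-PA and 109, 127 and 137 CPM in rt-PA+Acu. The groups overlapped and it did not pass (log2 fold change 0.44, SE 0.18, edgeR adjusted p = 0.0874), though it did without rt-PA replicate 3 (edgeR adjusted p = 0.0319). Cacna1a, Cacna2d3, Cacnb4, Cacng2, Cacng7 and Cacng8 did not pass.

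For the HCN genes, Hcn2 was at 105, 74.2 and 60.3 CPM in rt-PA+Acu (log2 fold change 1.10, SE 0.21, edgeR adjusted p = 0.00784). Hcn4 was at 19.3, 8.41 and 12.9 CPM in rt-PA and 1.85, 3.84 and 8.51 CPM in rt-PA+Acu, where replicate 3 overlapped the rt-PA range and the test was not passed (edgeR adjusted p = 0.0623). Trpm3 was at 111, 72.0 and 69.3 CPM (log2 fold change 1.90, SE 0.22, edgeR adjusted p = 0.00181), and Trpc4 at 9.30, 9.34 and 13.5 CPM in rt-PA and 21.2, 27.9 and 26.3 CPM in rt-PA+Acu (log2 fold change 1.23, SE 0.20, edgeR adjusted p = 0.00513). Trpc7 was lower, at 3.12, 5.24 and 3.88 CPM in rt-PA+Acu (log2 fold change -1.59, SE 0.31, edgeR adjusted p = 0.00856). The groups did not overlap for Hcn2, Trpm3, Trpc4 or Trpc7. Trpm2 was also higher (log2 fold change 0.61, SE 0.16, edgeR adjusted p = 0.0246), a call lost without rt-PA replicate 1 or 3 or rt-PA+Acu replicate 1 or 2 (edgeR adjusted p from 0.0694 to 0.0808).

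Trpv4 gave the widest gap. It was at 6.38, 5.68 and 5.09 CPM in rt-PA and 0.0843, 0.262 and 0.149 CPM in rt-PA+Acu, where no library held more than 3 counts. Over the 3 libraries of each group 240 counts stood against 6, a depth-scaled ratio of 35.1 (95% exact interval for counting error only, 15.9 to 96.5), and the edgeR adjusted p was 0.00104. The rt-PA+Acu levels were also below the Sham levels of 0.564, 0.917 and 1.13 CPM, a ratio of 5.30 from 32 and 6 counts (2.19 to 15.5), for which the gene was below the filter and not tested. The 3 endothelial markers that were measured summed to 156.8 to 209.5 CPM in rt-PA and 63.8 to 66.49 CPM in rt-PA+Acu, and all 3 were lower. In Sham they summed to 96.47 to 133.1 CPM, and 2 of the 3 were called lower in rt-PA+Acu than in Sham. Markers of infiltrating myeloid cells summed to 210.8 to 456.5 CPM and 27.23 to 41.49 CPM, with 5 of 6 lower. Glial markers did not fall with Trpv4: 5 of 6 astrocyte and 2 of 6 microglial markers were higher, and 0 were lower. The part of any of these cell types in the Trpv4 difference was not tested.

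**Figure D5:**
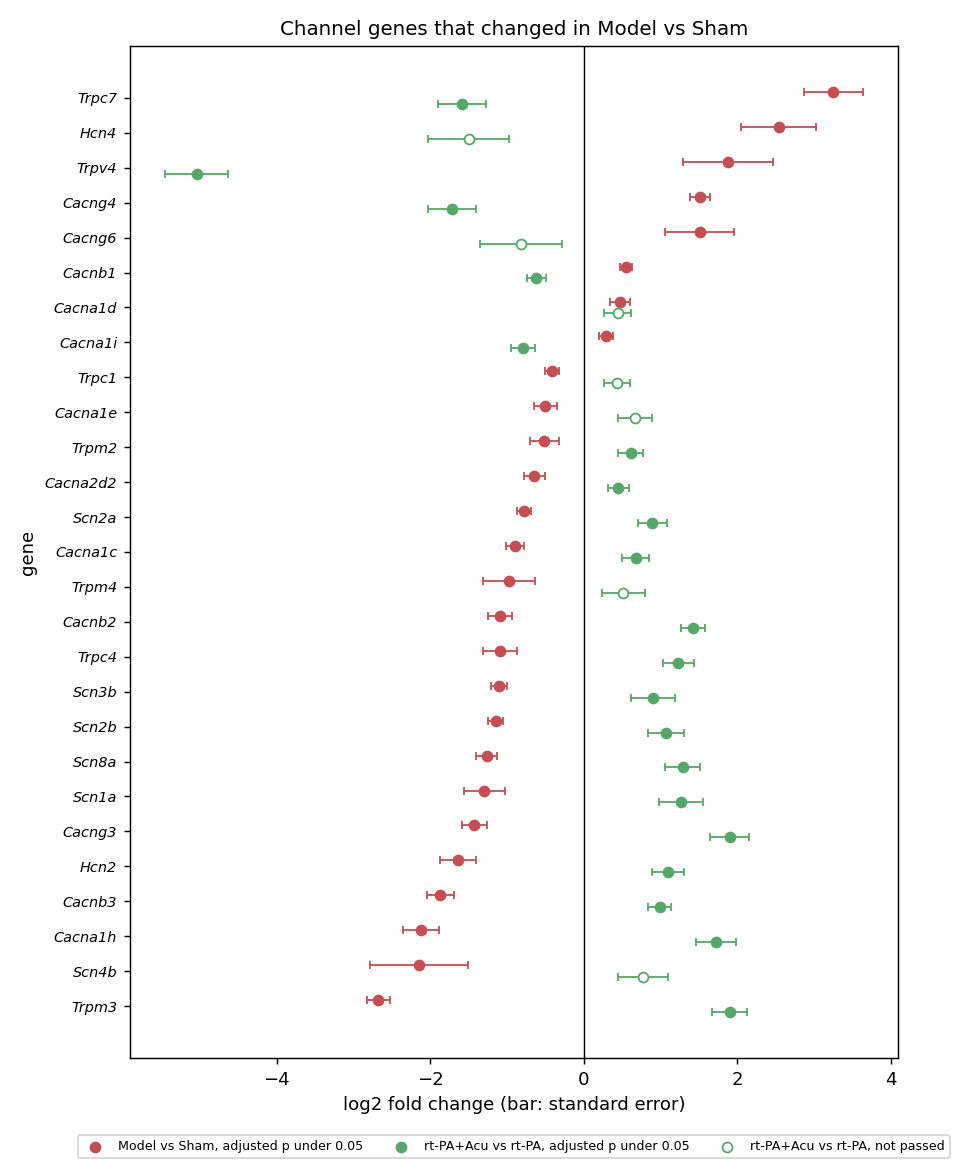
Fitted log2 fold changes (edgeR, bars are 1 SE) of 27 of the 28 channel genes that changed in Model against Sham, with red points for that comparison and green points for rt-PA+Acu against rt-PA; open points did not pass an adjusted p of 0.05. Of the 28 genes, 21 were called in both comparisons and in opposite directions (75%, against 53.8% over all genes). These 21 were 84% of the channel calls in rt-PA+Acu against rt-PA, against 83.4% over all genes. Of all genes called in both comparisons, 3715 of 3729 had opposite signs. The Trpv4 value of rt-PA+Acu against rt-PA rests on 3 or fewer counts in each rt-PA+Acu library, so its size depends on the fit.

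Model against Sham and rt-PA+Acu against rt-PA share no library, so their calls can be set side by side. Of 54 genes tested in both, 21 were called in both, and all 21 had opposite signs. Over all genes called in both, 3715 of 3729 had opposite signs too. The 21 were 75% of the genes called in the first comparison and 84% of those called in the second. Over all 12753 genes tested in both, the corresponding shares were 53.8% and 83.4%. Called only in Model against Sham were Cacna1d, Cacna1e, Cacng6, Hcn4, Scn4b, Trpc1 and Trpm4, and only in the second Cacna1b, Cacna1g, Cacna2d1 and Scn3a. Whether these genes differed between the comparisons was not tested.

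Partner genes in rt-PA+Acu against rt-PA were counted in the same way, on the same lists chosen with earlier results known. Of 12 sodium channel partners 5 were higher and none lower, and of 11 calcium channel regulators 1 was higher and 3 lower. These are 41.7% and 36.4% called, near the background of 34.8%. The one that rose was Akap5 (log2 fold change of 3.11, edgeR adjusted p = 0.00104), and Gem, Rrad and Stac2 fell (log2 fold changes of -3.34, -3.17 and -1.13, edgeR adjusted p = 0.00118, 0.00771 and 0.00186). Of 11 further TRP, store-operated and leak channels 6 were higher and 3 lower (81.8% called), of 15 extrusion genes 7 were higher and 1 lower (53.3% called), and none of the 4 HCN partners passed by edgeR (1 at an unadjusted p under 0.05). Slc8a2 rose by 2.02 and Atp1b2 by 1.56 (edgeR adjusted p = 0.00378 and 0.00197). All 5 markers of excitatory neurons were also higher (median log2 fold change 1.51), with sums of 659.7 to 887 CPM in rt-PA and 1282 to 2478 CPM in rt-PA+Acu. Of the 10 general neuronal markers 5 were higher and 0 lower, and 0 of the 5 interneuron markers passed by edgeR (0 at an unadjusted p under 0.05). Astrocyte markers were higher in 5 of 6 cases (median log2 fold change 1.00) and microglial ones in 2 of 6, while 5 of 6 myeloid markers and all 3 endothelial markers measured were lower. Oligodendrocyte markers summed to 2695 to 11447 CPM within rt-PA and 3212 to 21103 CPM within rt-PA+Acu, where the third library was the lowest for these and for the excitatory neuron markers, and 0 of 6 passed by edgeR (0 at an unadjusted p under 0.05). The part of cell composition in the channel differences was not tested.

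The comparison of rt-PA+Acu with Sham, which reuses libraries of the comparisons above, asks which channels still differed from uninjured cortex. Of 54 tested, 2 were called, both lower (3.7%, background 5.1% of all 12775 genes, of which 1.7% higher and 3.4% lower), and neither by over 2-fold (background 2.06%). Cacnb3 was at 116, 146 and 103 CPM against 236, 255 and 232 CPM in Sham (log2 fold change -0.99, SE 0.14, edgeR adjusted p = 0.00885), and Cacna1i at 134, 104 and 138 CPM against 192, 188 and 181 CPM (log2 fold change -0.58, SE 0.12, edgeR adjusted p = 0.0399). Both were apart from Sham in every library. The Cacnb3 call was lost without Sham replicate 2 (edgeR adjusted p = 0.0567), and the Cacna1i call without any 1 Sham library or rt-PA+Acu replicate 2 (0.0714 to 0.167). Cacnb3 and Cacna1i differ in their course: Cacnb3 was also lower in Model, whereas Cacna1i was slightly higher there. The call of that Cacna1i rise was lost without any single Sham library or without Model replicate 1. Some cell type markers also differed from Sham. Called lower were 4 of 4 mural, 4 of 5 striatal, 2 of 3 endothelial and 2 of 6 microglial markers, against the background of 5.1%. Of 6 astrocyte markers 1 was higher and 1 lower, and 0 of 5 excitatory neuron and 0 of 6 oligodendrocyte markers were called. The part of cell composition in this comparison was not tested.

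At an unadjusted p under 0.05 there were 13 of 54 channel genes (24.1%, background 23.2%), and 16 had groups that did not overlap (29.6%, background 30.8%). Trpc7, at 3.12, 5.24 and 3.88 CPM against 1.37, 2.52 and 1.66 CPM in Sham, was above every Sham library without passing (edgeR adjusted p = 0.105). Trpv6, an epithelial calcium channel, was at 20.1, 31.2 and 20.9 CPM against 13.9, 10.9 and 14.7 CPM (edgeR adjusted p = 0.0544), and Cacna1s at 5.65, 1.75 and 3.66 CPM against 1.37, 1.07 and 1.31 CPM (edgeR adjusted p = 0.0904). DESeq2 called Trpv6 and Cacna1s, both higher, together with Cacnb1, Cacnb3 and Cacna1i, all lower. Cacnb1 was at 117, 138 and 124 CPM against 157, 155 and 163 CPM in Sham. It was below every Sham library without passing by edgeR (edgeR adjusted p = 0.0959), as was Trpm4 (edgeR adjusted p = 0.151). Without rt-PA+Acu replicate 3, 6 channels were called, adding Cacna1h, Cacng2, Cacng4 and Trpv6, and without rt-PA+Acu replicate 1 there were 5, adding Hcn2, Trpm3 and Trpv6. Without Sham replicate 2 there was none.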

How the data were processed

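RNA was measured by poly(A) sequencing of 12 cortex libraries with a kit that marks strand. The authors deposited raw read counts per gene, 1 column per library; per the study's methods, STAR aligned the reads to mRatBN7.2 and Salmon counted pairs on Ensembl genes. The submitters' processing notes give STAR 2.7.10a and Salmon 1.9.0, and also featureCounts 2.0.1 with no role. The Ensembl release, and whether molecular identifiers and strand were used in counting, are not given in the sources used here.

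From the deposited counts, every comparison was fitted to its own 6 libraries with edgeR 4.0.16 in R 4.3.3 (filterByExpr, TMM, quasi-likelihood F test, Benjamini-Hochberg over all genes tested, threshold 0.05). SE is the absolute log2 fold change divided by the square root of F. CPM used TMM factors over all 12 libraries, and SDs are over 3 libraries. No 2 libraries held identical counts. The code was tested on simulated data.

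Alternatives were DESeq2 1.42.0, RLE factors, library size alone, other count filters, 1 fit over 12 libraries, a replicate block, a 2-fold threshold and leaving out each library. The genes, partner lists and markers were chosen with earlier results of these data known. Named with values were mainly channel genes changed over 2-fold and the subunits best known in cortex, whatever they did. Some other channel genes and some of the partner genes are also named with values, and the rest are given by counts. Some genes enter the counts but are not reported here by name.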

Additional observations from a re-analysis of the deposited data

How the results depend on the processing

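No called channel gene reversed under any alternative tried. Requiring a change over 2-fold left 17 of 28 calls in Model against Sham, 12 of 25 in rt-PA+Acu against rt-PA and 0 of 2 in rt-PA+Acu against Sham. Leaving out each library gave 23 to 35 calls in Model against Sham, 0 in rt-PA against Model each time, 17 to 30 in rt-PA+Acu against rt-PA and 0 to 6 in rt-PA+Acu against Sham; 35 were reached without Model replicate 3, 17 without rt-PA replicate 1, 0 without Sham replicate 2 and 6 without rt-PA+Acu replicate 3. In rt-PA+Acu against Sham, DESeq2 called 5. The 2-fold threshold aside, under every alternative in which they were tested, 21 of 28 genes in Model against Sham and 17 of 25 in rt-PA+Acu against rt-PA kept their call, and 0 of 2 in rt-PA+Acu against Sham. Where a cause is not given by the construction of the alternative, the cause was not tested.

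Replicate numbers are not said to pair the libraries, and same-numbered libraries correlated at -0.121 to 0.144 in their deviations from group means. With the number as a block the counts were 31, 0, 26 and 1 in the order above (rt-PA against Model second), the last losing Cacna1i. Genes under about 10 counts per library, such as Trpv4 in rt-PA+Acu, are limited by depth.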
